A study of Caenorhabditis elegans with 23 samples.

Results

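The comparison described here sets the mRNA of MY16_Star worms against that of MY16 worms, across every expressed gene of Caenorhabditis elegans. MY16 is a wild isolate and N2 is the standard laboratory strain. The members were chosen by library: 6 of the 23 libraries in the series, 3 of MY16_Star mRNA and 3 of MY16 mRNA, with all rows that carry a WormBase gene identifier. All groups were whole worms on the first day of adulthood, grown at 20 °C on a diet of E. coli. The groups used are MY16_Star and MY16, and, for reference values, N2_Star and N2, with 3 mRNA libraries each. In small RNA, MY16_Star, MY16 and N2 have 3 libraries each and N2_Star has 2. The sources used here do not say what Star denotes, name no transgene or mutation for any group, and give the isolate MY16 to both groups compared. The replicates are called biological, and nothing says that they came from separate cultures, so p-values measure the spread between these libraries. The design text names MY16_Star as the group short of a small RNA library, whereas the library labels put that gap in N2_Star. The labels are followed here.

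C. elegans passes some gene silencing to its progeny through small RNAs. Worm Argonaute proteins carry short guide RNAs to matching transcripts, RNA-dependent RNA polymerases copy the targeted transcripts into further antisense small RNAs, and nuclear Argonautes such as HRDE-1 repress the gene in the germline of later generations. A targeted gene can therefore have abundant small RNA and little mRNA, although not every small RNA lowers the mRNA it matches. Whole adult hermaphrodites contain a large germline with oocytes, stored sperm and embryos in addition to the somatic tissues.

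Of 46904 gene identifiers, 19661 had at least 1 count in the 6 libraries and 14502 had a count in all 6. The test was made on 13983 genes that passed a filter on low counts over the 12 mRNA libraries, and 102 of them had no count in the 6 libraries. Counts assigned to genes ranged between 9362590 and 20194076 per library. The 12 mRNA libraries were fitted together with edgeR's quasi-likelihood test, and a gene was called where the Benjamini-Hochberg adjusted p was under 0.05. Levels are given in CPM, counts scaled to a fixed library total, which do not correct for gene length. Fold changes compare a gene with itself. Rankings by level, level ranges and marker sums use these levels across genes, uncorrected for length.

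The 6 libraries did not separate cleanly by group. The correlation of log2 CPM across genes was between 0.967 and 0.985 within groups. MY16_Star replicate 3 and MY16 replicate 3 were the most alike of the 15 pairs, with a chi-square of 11.1 per degree of freedom, against 34.9 to 97.5 for pairs within a group. No pair agreed within sampling noise. On the first principal component, which held 54.4% of the variance, MY16_Star replicates 1, 2 and 3 scored -63.9, -18.3 and 25.7, and MY16 replicates 1, 2 and 3 scored -27, 29.8 and 53.7. MY16_Star replicate 3 thus lay among the MY16 libraries on that axis, and MY16 replicate 1 lay among the MY16_Star libraries. Many values changed when 1 of the 6 libraries was left out, and values from such fits are given beside the results they move most.

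Markers of the tissues of an adult worm were all detected, with none of the markers looked up at 0 in all 6 libraries. Defining markers of oocytes and the maternal germline summed to between 13071 and 16859 CPM in MY16_Star and between 10043 and 12506 CPM in MY16. Those of sperm summed to between 9.03 and 37.2 CPM in MY16_Star and between 17.8 and 50.5 CPM in MY16, and those of body wall muscle to between 3158 and 4641 CPM in MY16_Star and between 4358 and 5453 CPM in MY16. Markers of the mitotic and meiotic germline summed to between 3242 and 3703 CPM in MY16_Star and between 2663 and 2948 CPM in MY16. The oocyte sums and these germline sums did not overlap between the groups, while those of sperm, muscle and the other tissues looked up did. In whole worms, fewer cells of a type and less RNA per cell cannot be told apart.

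The mRNA of 3 genes fell in MY16_Star and that of none rose. These 3 are 0.0215% of the genes tested. They are rnh-1.3, a gene of the RNase H family, whose enzymes cleave the RNA strand of RNA-DNA hybrids, C38D9.2, a gene on the list of known endogenous siRNA targets, and W09H1.4, a protein-coding gene named here by its sequence identifier only. At a level of at least 5 CPM in either group, these genes had the largest decreases. At an unadjusted p under 0.05, 249 genes were higher (1.78%) and 370 were lower (2.65%) in MY16_Star, which together make 4.43% of the genes tested. These counts moved with single libraries: with 1 left out, between 126 (without MY16_Star replicate 1) and 375 (without MY16_Star replicate 3) of the genes tested were higher, and between 138 (without MY16 replicate 3) and 1131 (without MY16_Star replicate 3) were lower. With upper-quartile scaling, 0.687% of genes were higher and 3.16% lower. DESeq2 called the same 3 genes and no other.

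For rnh-1.3 (WBGene00007303, chromosome I, 9710088 to 9710745, WBcel235), the mRNA level was 7.34, 6.11 and 7.12 CPM in the MY16_Star libraries and 45.8, 28.9 and 27.1 CPM in the MY16 libraries. Every MY16_Star library lay below every MY16 library, and MY16 replicate 1 was the highest of the 6. The libraries behind these values held 126, 104 and 110 counts in MY16_Star and 805, 567 and 262 counts in MY16. The log2 fold change was -2.31 ± 0.275 (SE, n = 3 each, 95% interval -2.90 to -1.71, edgeR adjusted p = 0.0237). Its level averaged 5.01 ± 1.55 CPM in N2_Star and 5.05 ± 0.518 CPM in N2 (SD, n = 3 each), so the MY16 libraries stood above the other 3 groups. Of the other RNase H genes, rnh-1.0, rnh-1.1, rnh-1.2 and rnh-2, none passed the test, and rnh-1.0 had a log2 fold change of 0.21 ± 0.170.

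C38D9.2 (WBGene00008010, chromosome V, 17567150 to 17571739) had the largest fold change of the 3. Its mRNA level was 1.40, 2.29 and 1.62 CPM in MY16_Star and 8.76, 24.2 and 25.9 CPM in MY16. The groups did not overlap, but MY16 replicate 1 lay well below the other MY16 libraries. The MY16_Star libraries held only 24, 39 and 25 counts for this gene, against 154, 476 and 250 counts in MY16. The log2 fold change was -3.46 ± 0.441 (95% interval -4.42 to -2.50, edgeR adjusted p = 0.0237). In N2_Star the mean was 1.41 ± 0.579 CPM and in N2 it was 0.792 ± 0.147 CPM (SD, n = 3 each).

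W09H1.4 (WBGene00012374, chromosome II, 13183528 to 13185914) stood at 4.95, 3.65 and 4.08 CPM in MY16_Star and at 20.1, 16.9 and 17.5 CPM in MY16. Both groups were tight, and they did not overlap. There were 85, 62 and 63 counts in MY16_Star and 354, 332 and 169 counts in MY16. The log2 fold change was -2.10 ± 0.274 (95% interval -2.70 to -1.51, edgeR adjusted p = 0.0237). Its mean level was 1.03 ± 0.398 CPM in N2_Star and 1.04 ± 0.167 CPM in N2. Shorter genes lie within its span, his-73, a histone gene, with means of 0.900 CPM in MY16_Star and 1.81 CPM in MY16, and W09H1.3 with 1.04 CPM in MY16_Star and 1.51 CPM in MY16. How reads over shared bases were assigned is not given in the sources used here, so the split between these 3 genes is uncertain.

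The calls rested on all 6 libraries. For rnh-1.3, leaving out any 1 of them gave adjusted p-values between 0.0551 and 0.285 and log2 fold changes between -2.44 and -2.02. For W09H1.4 the adjusted p was between 0.133 and 0.699 and the log2 fold change between -2.23 and -1.93. C38D9.2 passed only without MY16 replicate 1, and without any other library its adjusted p was between 0.106 and 0.229. With the 2 groups fitted alone, adjusted p-values were 0.0609 for rnh-1.3, 0.202 for C38D9.2 and 0.0609 for W09H1.4. Each gene was lower in MY16_Star in every such fit, with C38D9.2 between -3.81 and -3.20 on the log2 scale.

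**Figure D1:**
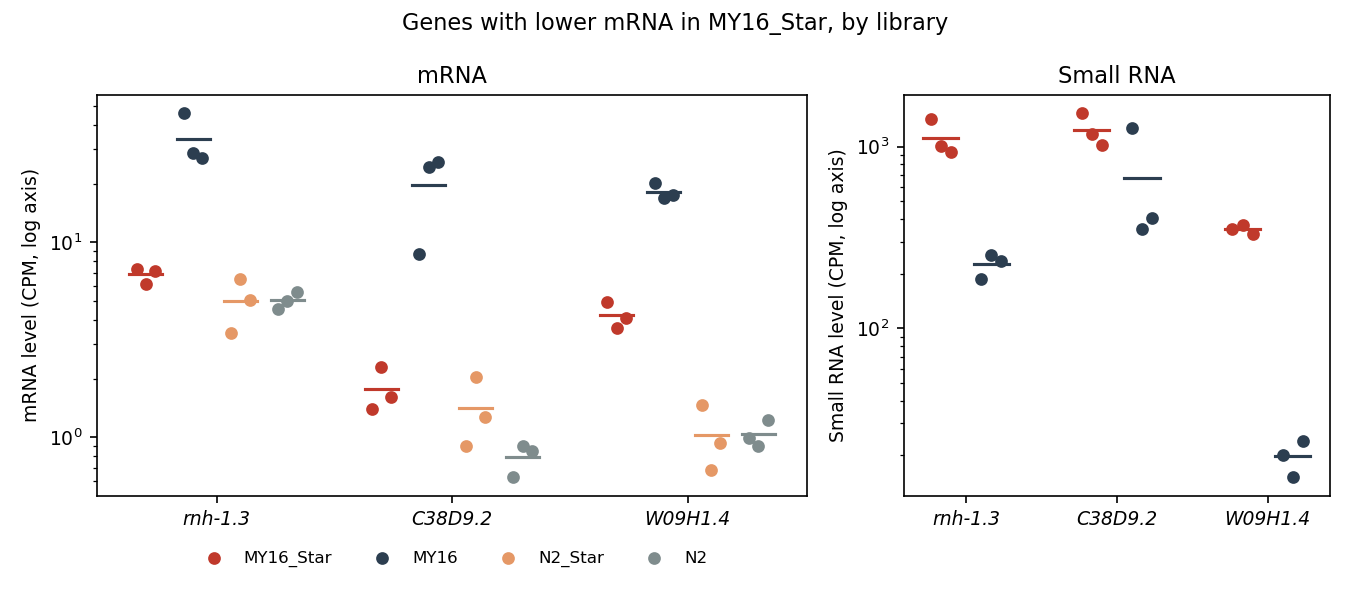
Left, mRNA level in CPM on a log axis of the 3 genes whose mRNA fell in MY16_Star, for MY16_Star, MY16, N2_Star and N2. Right, small RNA level of the same genes in MY16_Star and MY16. Each point is a library and each bar a group mean. The MY16 mRNA points lie above all others for each gene, between 8.76 and 45.8 CPM, and the small RNA points of C38D9.2 overlap between the groups.

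None of the tested neighbours of these genes passed the test. On either side of rnh-1.3, C04F12.16 had a log2 fold change of -1.11 ± 0.492 at means of 0.452 CPM in MY16_Star and 0.995 CPM in MY16, and fce-1, a CAAX protease gene, had -0.03 ± 0.112 at means of 110 CPM in MY16_Star and 112 CPM in MY16. Next to C38D9.2, fbxa-171 and fbxa-133 had no count in the 6 libraries. Upstream of W09H1.4 in coordinate order, W09H1.1 had a log2 fold change of -0.58 ± 0.386.

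Between N2_Star and N2, the same genes gave log2 fold changes of -0.02 ± 0.271 for rnh-1.3, 0.82 ± 0.462 for C38D9.2 and -0.03 ± 0.305 for W09H1.4, and none passed the test. In that comparison 21 genes were called, 0.15% of those tested. The difference between the MY16 and N2 comparisons was itself tested, and it was -2.29 ± 0.382 for rnh-1.3 (adjusted p = 0.168), -4.29 ± 0.631 for C38D9.2 (adjusted p = 0.168) and -2.07 ± 0.408 for W09H1.4 (adjusted p = 0.266). No gene passed that test in edgeR, whereas 1830 had an unadjusted p under 0.05 (13.1%), and DESeq2 called 83. The unadjusted p of that edgeR test was 5.75e-05 for rnh-1.3, 1.73e-05 for C38D9.2 and 0.000259 for W09H1.4. Whether these genes are among the DESeq2 calls is not given here. After adjustment in edgeR, the fall of these mRNAs is not shown to differ between the MY16 and N2 backgrounds.

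Small RNA was sequenced from the same groups, with between 1961627 and 14118178 counts per library, of which MY16 replicate 1 had the fewest. The small RNA assigned to rnh-1.3 was 1418, 1012 and 932 CPM in MY16_Star and 186, 252 and 236 CPM in MY16, a log2 fold change of 2.32 ± 0.233 (adjusted p = 0.000498). For W09H1.4 it was 352, 370 and 330 CPM in MY16_Star and 20.1, 15.2 and 24.0 CPM in MY16, a log2 fold change of 4.15 ± 0.247 (adjusted p = 6.18e-06). In both genes, small RNA rose and mRNA fell, with no overlap between the groups in either measure. For C38D9.2, small RNA was 1520, 1173 and 1021 CPM in MY16_Star and 1268, 351 and 405 CPM in MY16. Those groups overlapped because of MY16 replicate 1, and the adjusted p was 0.615. N2 libraries averaged 1921 ± 227 CPM of small RNA for rnh-1.3, 826 ± 160 CPM for W09H1.4 and 1247 ± 344 CPM for C38D9.2 (SD, n = 3).

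Across the genome, small RNA rose for 70 genes (0.572% of 12241 tested) and fell for 55 (0.449%), 125 genes or 1.02% in all. A fit with the replicate number as a block called 188 genes. Of the 70 genes that gained small RNA, 60 passed the filter in mRNA. In mRNA, 2 of these 60 fell and none rose. At an unadjusted p under 0.05, 10 were lower and none higher, against 2.65% lower and 1.78% higher among all genes tested. The libraries of the groups did not overlap for 19 lower genes and 1 higher gene of the 60, against 5.36% lower and 5.35% higher among all. Their median log2 fold change was -0.25, with 44 of 60 below 0, against a median of -0.04 over all genes. The count of 10 and the share over all genes both moved with the library left out. Without MY16_Star replicate 3 the count was 9 against 8.02% lower among all genes, and without MY16 replicate 1 it was 8 against 6.6%. Without MY16_Star replicate 2 it was 5 against 1.14%, and without MY16_Star replicate 1 it was 7 against 1.28%. The median was -0.18 without MY16_Star replicate 2 and -0.32 without MY16_Star replicate 1.

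Many of these genes had low mRNA levels, and low genes as a whole leaned lower in MY16_Star. Of the 60, 38 had a mean between 1 and 10 CPM. Within that range their median log2 fold change was -0.41, against -0.26 for all 4154 genes at that level. In the same range, 21.1% of the genes that gained small RNA were lower at an unadjusted p under 0.05, against 3.97% of all. The libraries did not overlap, with MY16_Star lower, for 36.8% of them against 8.96% of all. Between 10 and 100 CPM there were 12 such genes, 2 of which were lower at an unadjusted p under 0.05, against 1.43% of 4959.

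Of the 6 genes whose gain in small RNA had the smallest p, W09H1.4 alone passed the test in mRNA. The others were rcan-1, zip-2, K08D12.4, W09H1.3 and ZK686.6, of which ZK686.6 had at most 1 mRNA count in any of the 6 libraries. W09H1.3 lies within the span of W09H1.4, so the split of small RNA between them is uncertain and their gains may not be separate. For rcan-1, a calcineurin regulator, small RNA was 71.0, 71.0 and 83.7 CPM in MY16_Star and 0.574, 0.766 and 1.19 CPM in MY16. Its mRNA was 12.2, 10.1 and 14.4 CPM in MY16_Star and 11.3, 13.6 and 13.7 CPM in MY16, a log2 fold change of -0.07 ± 0.261 with a 95% interval of -0.64 to 0.50. The mRNA groups overlapped throughout while the small RNA groups were far apart. For zip-2, a bZIP transcription factor of the pathogen response, small RNA was 1214, 1149 and 989 CPM in MY16_Star and 35.03, 32.9 and 28.6 CPM in MY16. Its mRNA was 169, 129 and 127 CPM in MY16_Star and 166, 186 and 138 CPM in MY16, with an interval of -0.93 to 0.52. For K08D12.4, small RNA was 45.2, 39.6 and 41.6 CPM in MY16_Star and 1.72, 1.38 and 0.894 CPM in MY16. Its mRNA averaged 0.887 ± 0.114 CPM in MY16_Star and 0.761 ± 0.126 CPM in MY16 (SD, n = 3 each), with an interval of -0.62 to 1.02. In these 3 genes the mRNA interval included 0 on the log2 scale, while small RNA did not overlap.

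The other genes that gained small RNA and had lower mRNA at an unadjusted p under 0.05 were F22B7.9, WBGene00012898, WBGene00235353, linc-29, lido-18, Y38F2AL.12, nhr-15 and rsbp-1, and none passed the test. F22B7.9 had mRNA of 5.30, 4.23 and 4.08 CPM in MY16_Star and 6.65, 7.79 and 10.05 CPM in MY16, with a log2 fold change of -0.84 ± 0.232 (adjusted p = 0.873). WBGene00012898, which has no symbol in the tables used, stood at 3.15, 2.53 and 3.88 CPM in MY16_Star and 6.31, 7.34 and 8.49 CPM in MY16, a log2 fold change of -1.21 ± 0.270. In both, the groups did not overlap. The nuclear hormone receptor gene nhr-15 had -0.82 ± 0.308, the noncoding gene linc-29 had -0.68 ± 0.242 and lido-18 had -1.08 ± 0.390, all with an adjusted p of 0.873. WBGene00235353, which also has no symbol, had -0.79 ± 0.279, Y38F2AL.12 had -1.05 ± 0.390 and rsbp-1 had -0.63 ± 0.258. Of the 3, only the rsbp-1 libraries overlapped between the groups. F59C12.4 was the gene whose libraries were all higher in MY16_Star, with 0.57 ± 0.328. Apart from F22B7.9, WBGene00012898 and nhr-15, these were picked after their values were seen.

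Of the 55 genes that lost small RNA, 50 were tested in mRNA. None passed the test and none had an unadjusted p under 0.05. Their median log2 fold change was -0.14, and it was 0.04 without MY16_Star replicate 2. The libraries did not overlap for 5 lower and 2 higher genes, against 5.36% lower and 5.35% higher among all genes tested. For cnp-2, small RNA was 18.7, 9.02 and 6.03 CPM in MY16_Star and 389, 291 and 261 CPM in MY16. Its mRNA was 6.76, 9.41 and 14.7 CPM in MY16_Star and 9.04, 16.96 and 22.5 CPM in MY16, with an interval of -1.63 to 0.34. The mRNA groups overlapped, and a rise in mRNA beyond 0.34 on the log2 scale lay outside that interval.

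**Figure D2:**
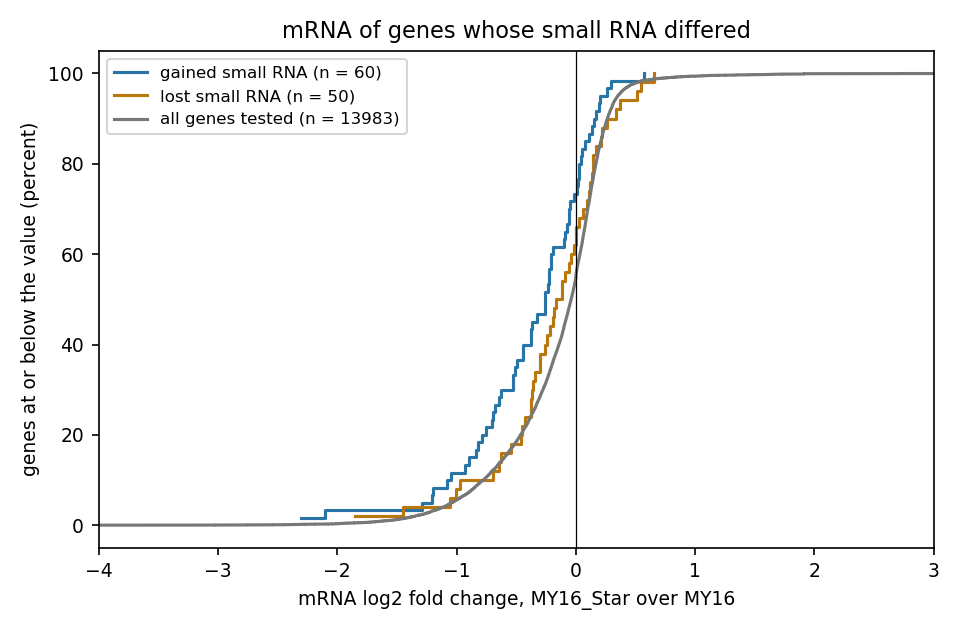
Cumulative percent of genes by mRNA log2 fold change of MY16_Star over MY16, for the 60 tested genes that gained small RNA, the 50 that lost it and all 13983 tested, including those. Values of all genes beyond the axis limits are not drawn. The curve of genes that gained small RNA lies left of that of all genes over most of its length, with a median of -0.25.

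**Figure D3:**
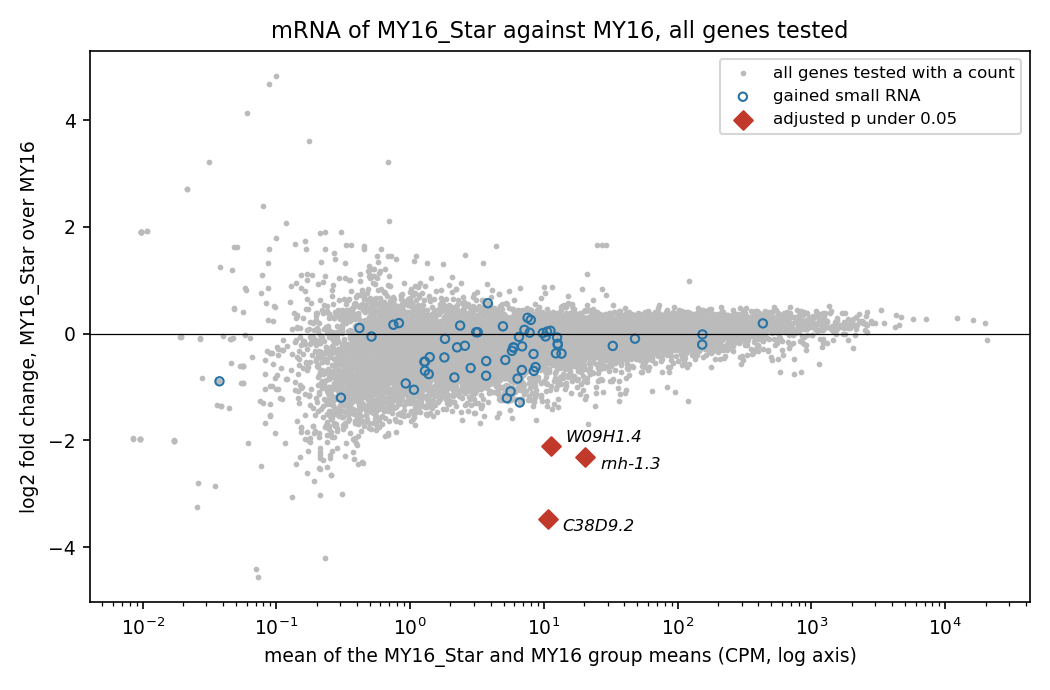
Log2 fold change of MY16_Star over MY16 for each tested gene with a count (y axis) against the mean of the group means in CPM (x axis, log scale). Diamonds mark the 3 genes past the test, and circles the genes that gained small RNA. The 3 genes lie apart from the others at their level, and the cloud widens below 10 CPM.

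Most mRNAs were measured closely enough to bound the difference. The 95% interval lay within 1 of 0 on the log2 scale for 8079 of the 13881 tested genes with a count (58.2%). That share was 88.2% for genes between 10 and 100 CPM and 96.3% between 100 and 1000 CPM, but 35.1% between 1 and 10 CPM and 1.93% under 1 CPM. The median log2 fold change was -0.40 under 1 CPM, -0.26 between 1 and 10 CPM, 0.04 between 10 and 100 CPM and 0.12 between 100 and 1000 CPM. Low genes thus leaned to MY16 and high genes to MY16_Star. With 1 library left out, the median under 1 CPM lay between -0.57 (without MY16 replicate 1) and -0.20 (without MY16 replicate 2), and that between 100 and 1000 CPM lay between 0.09 (without MY16 replicate 3) and 0.20 (without MY16_Star replicate 2). A count in MY16_Star only was found for 935 genes and in MY16 only for 1174, and none of these had more than 12 counts in total.

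By chromosome, the X stood lowest, with a median log2 fold change of -0.17 and 67.8% of its 1878 genes below 0, against 54.6% of all genes. At an unadjusted p under 0.05, 9 X-linked genes were higher (0.479%) and 74 lower (3.94%), against 1.78% higher and 2.65% lower among all genes. The X median was -0.24 without MY16 replicate 1 and -0.04 without MY16 replicate 2, and the count of 74 was 149 and 26 without MY16 replicates 1 and 3, in that order. Chromosome III had the highest median among the nuclear chromosomes, 0.04, with 44 genes higher and 38 lower of 2157. The marker sums of oocytes and of the mitotic and meiotic germline given above also differed between the groups, and their part in these values was not tested.

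None of the 10 most abundant RNAs passed the test. The 26S ribosomal RNA gene rrn-3.1 was high in replicate 2 of both groups, at 46339 CPM in MY16_Star and 41107 CPM in MY16, against 6019 to 14483 CPM in the other libraries. The yolk protein genes vit-6 and vit-2 and the translation elongation factor genes eef-1A.1 and eef-2 came next by mean count, before the yolk protein gene vit-5. For vit-2 the libraries held 19383, 17887 and 15660 CPM in MY16_Star and 12338, 18873 and 12943 CPM in MY16, with a log2 fold change of 0.26 ± 0.205. The elongation factor gene eef-1A.1 had 0.30 ± 0.170, and its MY16_Star libraries were all above those of MY16. Counts of rrn-3.1 cannot be assigned to 1 copy of the repeated rRNA genes.

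Lists of the RNA silencing machinery had medians near 0. None of the Argonautes (19 tested), the RNA-dependent RNA polymerase and mutator genes (19), the nuclear RNAi and chromatin silencing genes (20), the Dicer and ERI complex genes (9), the piRNA biogenesis genes (17) or the systemic RNAi genes (9) passed the test. Their medians were 0.06, 0.01, 0.09, -0.03, 0.08 and 0.02 on the log2 scale, in that order. With 1 library left out they lay between -0.14 and 0.23, that of the Argonautes at 0.23 without MY16 replicate 2 and that of the Dicer and ERI complex genes at 0.13 without MY16_Star replicate 1. The numbers of genes with all MY16_Star libraries above all MY16 libraries were 3, 2, 2, 1, 1 and 0, in the same order. No gene on these lists had the reverse. Over all genes these shares were 5.35% higher and 5.36% lower, and 15.2% were higher between 100 and 1000 CPM. The piRNA Argonaute gene prg-1 had 504, 404 and 423 CPM in MY16_Star and 351, 381 and 364 CPM in MY16, which did not overlap, with 0.28 ± 0.120 (adjusted p = 0.873). The germline nuclear Argonaute gene hrde-1 had 0.23 ± 0.169, the Argonaute gene csr-1 0.24 ± 0.180 and the dsRNA channel gene sid-1 0.02 ± 0.203. The helicase gene rde-12 had 0.35 ± 0.127, the demethylase gene spr-5 0.24 ± 0.138, eri-5 0.31 ± 0.148 and pid-2 0.35 ± 0.132. The intervals of these 8 genes lay within 1 of 0 on the log2 scale, and those of the other genes on these lists are not given here.

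Of 17 listed endogenous siRNA targets, 11 matched an identifier and 10 were tested, and C38D9.2 fell. The median of the 10 was -0.29, with 7 below 0, 1 above 0 and the rest at 0. It was -0.10 without MY16 replicate 2. The libraries did not overlap for 3 lower members and 1 higher member, against 5.36% lower and 5.35% higher among all genes. The MATH-domain gene bath-45 had 1.98, 1.12 and 1.10 CPM in MY16_Star and 2.45, 1.63 and 3.21 CPM in MY16, which overlapped, with -0.77 ± 0.389.

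P granule genes, which encode the RNA and protein condensates around germline nuclei, were mostly a little higher in MY16_Star, and none passed the test. Of 19 tested, 17 were above 0, 9 had all MY16_Star libraries above all MY16 libraries and 6 had an unadjusted p under 0.05, all higher. Over all genes these shares were 5.35% and 1.78%, and over genes between 100 and 1000 CPM they were 15.2% and 6.33%. The list's median was 0.25, against -0.04 over all genes and 0.12 over genes between 100 and 1000 CPM. It was 0.16 without MY16 replicate 3 and 0.39 without MY16 replicate 2. For pgl-3, a core scaffold gene, the levels were 412, 369 and 351 CPM in MY16_Star and 221, 309 and 280 CPM in MY16, a log2 fold change of 0.48 ± 0.148. The helicase gene glh-2 had 334, 351 and 334 CPM in MY16_Star and 207, 261 and 259 CPM in MY16, with 0.49 ± 0.154. Both had an adjusted p of 0.873, and MY16 replicate 1 was the lowest of the 6 libraries in each.

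Oocyte and maternal genes leaned the same way. Of 40 tested, 39 were above 0, with a median of 0.31, and 13 had libraries that did not overlap, all higher. At an unadjusted p under 0.05, 9 were higher and none lower. The shares given above, 5.35% and 1.78% over all genes and 15.2% and 6.33% between 100 and 1000 CPM, apply here as well. Without MY16_Star replicate 1 the count of 9 was 1, against 0.874% of all genes, and the median was 0.18. Without MY16_Star replicate 2 the median was 0.42. The yolk receptor gene rme-2 had 1912, 1422 and 1450 CPM in MY16_Star and 924, 1278 and 1131 CPM in MY16, with 0.52 ± 0.186. The egg activation gene egg-4 had 215, 164 and 159 CPM in MY16_Star and 133, 138 and 122 CPM in MY16, with 0.45 ± 0.141. In each, MY16_Star replicate 1 was the highest library and the groups did not overlap. Neither passed the test, with an adjusted p of 0.873.

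Lists of other germline genes, of yolk protein genes and of the early embryo held no call. Meiosis genes had a median of 0.09 (24 tested), with the axis gene htp-3 at 0.35 ± 0.125. Spindle pulling force genes had a median of 0.21 (14 tested), and 5 of them had non-overlapping libraries, all higher, against 5.35% of all genes and 15.2% of those between 100 and 1000 CPM. Among these, lin-5 had 245, 251 and 243 CPM in MY16_Star and 209, 214 and 205 CPM in MY16, with 0.24 ± 0.0977, and gpr-1 had 14.04, 14.2 and 14.6 CPM in MY16_Star and 12.2, 10.5 and 10.05 CPM in MY16, with 0.38 ± 0.187. Both encode proteins of the cortical complex that pulls on spindle microtubules. The 6 vitellogenins, of which vit-2, vit-5 and vit-6 were among the intestine markers, had a median of 0.27, with all 6 above 0. Replicative histone genes had a median of 0.22 (29 tested) and zygotic genes of the early embryo 0.00 (9 tested). The vitellogenin median was 0.61 without MY16 replicate 2, the histone median 0.42 without MY16_Star replicate 3, the spindle median 0.32 without MY16_Star replicate 2 and the meiosis median 0.03 without MY16 replicate 3. Histone and vitellogenin genes have near-identical copies, between which reads may be split.

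Sperm genes were lower in most MY16_Star libraries, with wide spread. Major sperm protein genes had a median of -0.999 and 27 of 28 below 0, and other sperm function genes had -0.66 with 47 of 56 below 0. The median of the major sperm protein genes was -1.73 without MY16_Star replicate 3 and -0.64 without MY16_Star replicate 1. Among them, msp-50 had 0.816, 1.53 and 3.37 CPM in MY16_Star and 2.50, 5.86 and 6.21 CPM in MY16, with -1.35 ± 0.541. MY16_Star replicate 3 lay above MY16 replicate 1 there, so the groups overlapped. The mean level of the sperm function list, centred on the 6 libraries, was -0.72, -0.46 and 0.32 in MY16_Star and -0.32, 0.49 and 0.69 in MY16 on the log2 scale. The median of that list was -1.28 without MY16_Star replicate 3 and -0.36 without MY16 replicate 3. The major sperm protein genes are near-identical copies, so single members are uncertain.

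Apart from the vitellogenins, the somatic lists given here had medians below 0, and no member passed the test. The part of the oocyte, germline and sperm marker sums given above was not tested. Cuticle collagens had a median of -0.71 with 114 of 134 below 0, neuropeptides and insulins -0.48 with 84 of 100, neuronal genes -0.42 with 16 of 18, pharyngeal genes -0.50 with 9 of 10, body wall muscle genes -0.33 with 19 of 20 and intestinal genes -0.10 with 16 of 20. The intestinal median was 0.03 without MY16_Star replicate 2. Without MY16_Star replicate 3 the medians were -1.02 for pharyngeal genes, -0.79 for neuropeptides and insulins, -0.69 for neuronal genes and -0.48 for muscle genes. Nearest to 0 with a library left out, these medians were -0.27 for pharyngeal genes and -0.26 for neuropeptides and insulins without MY16_Star replicate 2, -0.27 for neuronal genes without MY16_Star replicate 1 and -0.22 for muscle genes without MY16 replicate 3. The collagen list's centred level was -0.21, -0.16 and -0.23 in MY16_Star and -0.84, 0.72 and 0.72 in MY16. The lowest of the 6 libraries was therefore a MY16 one, and the collagen median was -1.15 without MY16 replicate 1 and -0.18 without MY16 replicate 2.

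Among muscle genes, 6 of 20 had all MY16_Star libraries below all MY16 libraries, against 5.36% of all genes, and 5 were lower at an unadjusted p under 0.05, against 2.65%. Without MY16_Star replicate 2 none were, against 1.14% of all genes, and without MY16_Star replicate 3 there were 10, against 8.02%. The paramyosin gene unc-15 had 451, 369 and 587 CPM in MY16_Star and 598, 665 and 681 CPM in MY16, with -0.47 ± 0.186. The myosin heavy chain gene unc-54 had 780, 743 and 1241 CPM in MY16_Star and 1014, 1486 and 1623 CPM in MY16, with -0.58 ± 0.225. In unc-54 the groups overlapped through MY16_Star replicate 3. The FMRFamide-like neuropeptide genes flp-7 and flp-21 had -1.40 ± 0.414 and -1.34 ± 0.400, from levels of at most 0.906 CPM in MY16_Star and between 0.967 and 1.73 CPM in MY16. Of the 100 neuropeptide and insulin genes, 14 were lower at an unadjusted p under 0.05, against 2.65% of all genes. That share was 3.97% over genes between 1 and 10 CPM and 4.91% under 1 CPM. The count of 14 was 6 without MY16 replicate 3, against 1.01% of all genes, and 33 without MY16_Star replicate 3, against 8.02%. For 11 of the 100 the libraries did not overlap, all lower, against 8.96% between 1 and 10 CPM and 7.26% under 1 CPM.

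**Figure D4:**
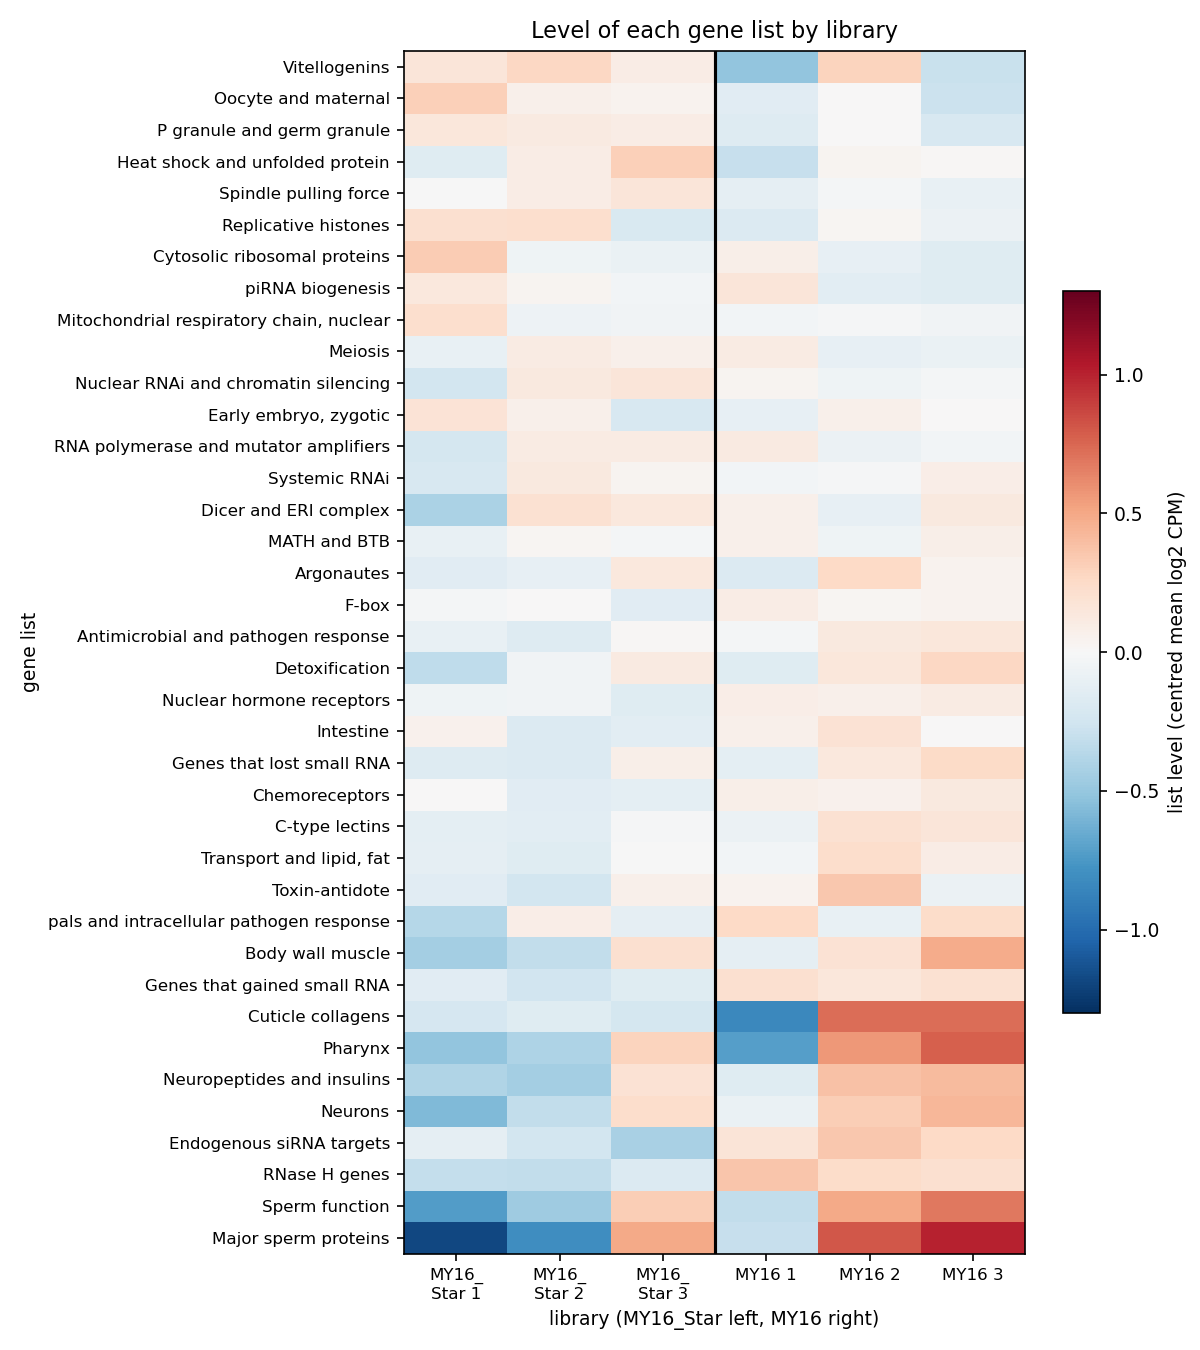
Level of each gene list in each library: the mean log2 CPM of its tested members, less its mean over the 6 libraries, with MY16_Star libraries left of MY16 libraries. Rows run from lists higher in MY16_Star to lists lower in it. For sperm function genes, MY16_Star replicate 3 (0.32) lies with MY16 replicates 2 and 3 (0.49 and 0.69), and MY16 replicate 1 (-0.32) with the other MY16_Star libraries.

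Housekeeping lists had small medians. Cytosolic ribosomal protein genes had a median of 0.16 with 78 of 81 above 0, and rps-2 had 0.31 ± 0.197. The median of the ribosomal list was 0.0011 without MY16_Star replicate 1 and 0.30 without MY16_Star replicate 2. Nuclear-encoded genes of the mitochondrial respiratory chain had a median of 0.07 (45 tested), with nuo-5, a complex I subunit gene, at 0.31 ± 0.154. That median was -0.03 without MY16_Star replicate 1 and 0.21 without MY16_Star replicate 2. Neither list held a call, and their per-library levels overlapped between the groups. The list of genes of the mitochondrial genome matched no identifier.

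Heat shock and protein folding genes had a median of 0.09 (51 tested). Of these, 11 had all MY16_Star libraries above all MY16 libraries, and none the reverse, against 5.35% and 5.36% of all genes and 15.2% higher among those between 100 and 1000 CPM. The list's median was 0.02 without MY16_Star replicate 3 and 0.18 without MY16 replicate 2. The segregase gene cdc-48.1 had 1468, 1272 and 1284 CPM in MY16_Star and 881, 1159 and 1058 CPM in MY16, with 0.38 ± 0.160. The inducible genes hsp-70 and hsp-16.2 varied more between libraries. For hsp-70 the levels were 3.50, 15.8 and 104 CPM in MY16_Star and 1.54, 21.6 and 15.6 CPM in MY16, with 1.66 ± 1.20. For hsp-16.2 they were 18.1, 23.7 and 71.5 CPM in MY16_Star and 2.45, 20.9 and 12.3 CPM in MY16, with 1.66 ± 0.907. MY16_Star replicate 3 was the highest and MY16 replicate 1 the lowest in both genes, and the adjusted p was 0.873. Without MY16_Star replicate 3 the log2 fold change was -0.42 for hsp-70 and 0.81 for hsp-16.2, and without MY16 replicate 1 it was 1.13 for hsp-70 and 1.18 for hsp-16.2.

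Lists tied to infection and the environment held no call. Medians were -0.21 for pals genes of the intracellular pathogen response (26 tested), -0.17 for antimicrobial genes (76), -0.18 for C-type lectins (93), -0.12 for F-box genes (139) and 0.00 for MATH and BTB genes (62). They were -0.17 for nuclear hormone receptors (174), -0.25 for chemoreceptors (32), -0.16 for detoxification enzymes (150), -0.12 for lipid and transport genes (68) and -0.21 for toxin-antidote genes (4). Of the MATH and BTB genes, 25 were above 0, 27 below and the rest at 0. Of the chemoreceptors, 9 were above 0, 20 below and the rest at 0. The toxin-antidote median was 0.07 and the chemoreceptor median 0.00 without MY16 replicate 2. The detoxification median was -0.28 without MY16 replicate 1 and -0.03 without MY16 replicate 2. Without MY16_Star replicate 2 the medians were -0.07 for antimicrobial genes, -0.06 for C-type lectins and -0.0031 for lipid and transport genes. Over all genes the median was -0.40 under 1 CPM and -0.26 between 1 and 10 CPM. The part of the mRNA level in these list medians was not tested. Among nuclear hormone receptors, 21 of 174 had all MY16_Star libraries below all MY16 libraries and 1 the reverse, against 5.36% and 5.35% of all genes, and 8.96% lower among those between 1 and 10 CPM. At an unadjusted p under 0.05, 2 of the 174 were lower, against 2.65% of all genes. The pals gene pals-32 had 1.34, 1.59 and 2.91 CPM in MY16_Star and 5.12, 3.26 and 6.42 CPM in MY16, which did not overlap, with -1.33 ± 0.383. The UDP-glucuronosyltransferase gene ugt-66 had -1.08 ± 0.364 and the lectin gene clec-12 had 1.33 ± 0.488, all with an adjusted p of 0.873.

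Among genes with at least 5 CPM in either group and no overlap between the groups, the 10 higher genes with the smallest p reached at most 0.84 on the log2 scale, and none passed the test. The largest of these values belonged to citk-1, which encodes a citron kinase family protein, with 19.1, 26.9 and 27.5 CPM in MY16_Star and 9.67, 15.4 and 16.2 CPM in MY16 and a log2 fold change of 0.84 ± 0.229. The kinesin genes klp-15 and klp-19, which act in meiotic and mitotic spindles, had 0.49 ± 0.139 and 0.42 ± 0.127. For klp-19 the levels were 483, 423 and 460 CPM in MY16_Star and 301, 374 and 349 CPM in MY16. In each of these genes MY16 replicate 1 was the lowest library. F22G12.4 had 0.47 ± 0.127, gfi-3 0.58 ± 0.179, Y39G8B.2 0.77 ± 0.238 and F54A3.2 0.45 ± 0.141.

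The 10 lower genes chosen the same way had log2 fold changes between -1.28 and -0.53, all with an adjusted p of 0.873. Besides F22B7.9 and WBGene00012898 they were ZK809.8, C26E1.2, pitp-1, R07G3.8, twk-24, sfxn-5, mec-17 and F22F4.4. ZK809.8 had 50.3, 42.5 and 47.5 CPM in MY16_Star and 70.2, 71.7 and 60.7 CPM in MY16, with -0.53 ± 0.136. The tubulin acetyltransferase gene mec-17, active in touch receptor neurons, had 7.46, 5.47 and 7.57 CPM in MY16_Star and 10.3, 10.3 and 10.9 CPM in MY16, with -0.62 ± 0.203. The potassium channel gene twk-24 had -1.28 ± 0.396. Of the largest fold changes at this level without a call, T04F3.1 had 3.32, 7.06 and 19.9 CPM in MY16_Star and 28.5, 19.6 and 50.0 CPM in MY16, with -1.69 ± 0.624, and the groups overlapped through MY16_Star replicate 3.

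**Figure D5:**
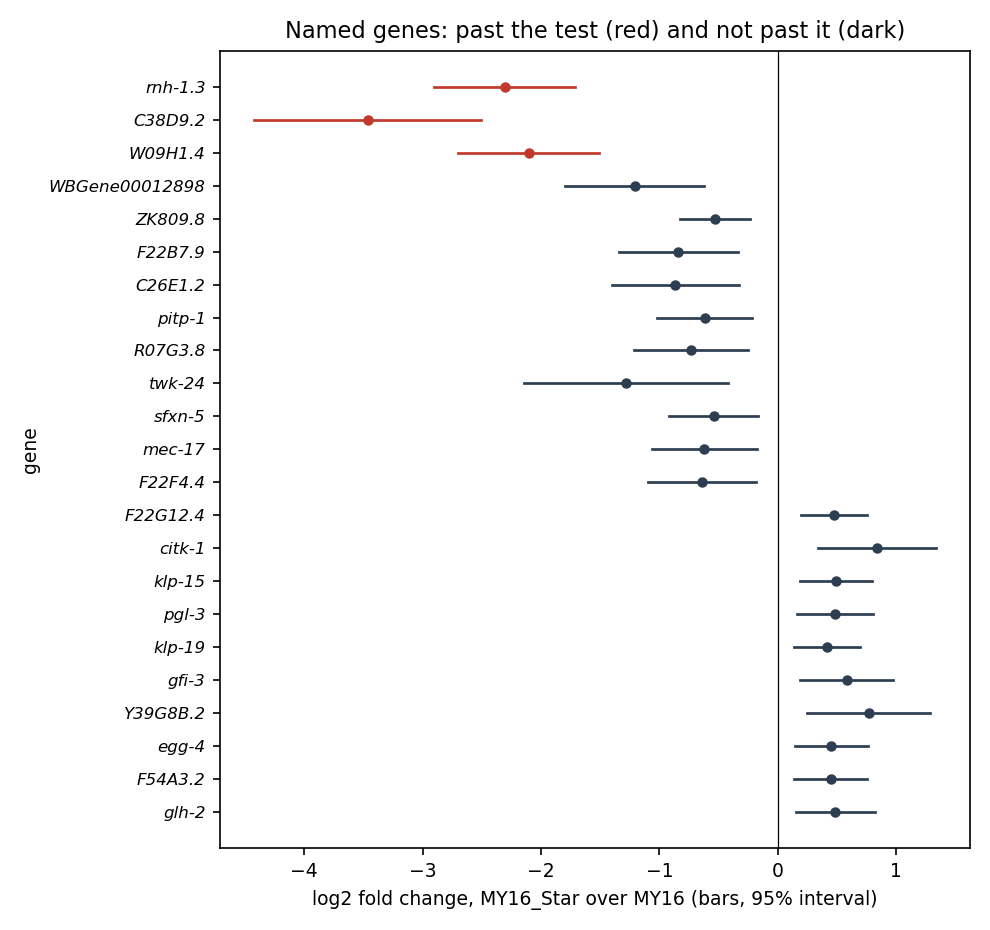
Log2 fold change of MY16_Star over MY16 with its 95% interval for the 3 genes past the test (red) and for the 10 lower and 10 higher genes with the smallest p that did not pass it (dark). The intervals of the 3 genes end at -1.51 or lower, while those of the higher genes reach at most 1.33.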

How the data were processed

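RNA of whole worms was sequenced as mRNA (12 libraries) and small RNA (11). The labels' protocol names TRIzol extraction and a small RNA library kit for both, and how ribosomal RNA was removed is not given in the sources used here. The deposited tables hold raw counts per gene made by the authors. Per the submitters' processing notes, cutadapt, FastQC, Bowtie2, HTSeq and DESeq2 were used with the genome ce11. Roles, versions, annotation release and strand setting are not given in the sources used here. Summary lines that name no gene, 8.17% to 11.4% of the 6 mRNA columns, were left out of library sizes and tests. Gene names and WBcel235 coordinates came from RefSeq and gene name tables, which named 44017 of 46904 identifiers.

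The counts were analysed in R 4.3.3 with edgeR 4.0.16: TMM scaling, filterByExpr by group, 1 quasi-likelihood fit over the 12 mRNA libraries in 4 groups without a replicate block, and contrasts with Benjamini-Hochberg adjustment over all genes tested at 0.05. SE is the absolute log2 fold change over the square root of F. Small RNA was fitted likewise over 11 libraries. Levels are CPM of library sizes with TMM factors, and list levels use log2 CPM with a prior count of 2. The script was tested on simulated data. Alternatives were RLE and upper-quartile scaling, no filter, at least 1 CPM in 3 libraries, DESeq2 1.42.0, a fit of the 2 groups alone, the replicate block, and leaving out each library. In small RNA the deviations of same-numbered libraries correlated at 0.316, 0.117 and 0.364, while MY16 replicate 2 correlated at 0.156 with MY16_Star replicate 3. The numbers may therefore pair the samples there, a pairing that comes from the data alone. Small RNA values of single genes and the genes that gained or lost small RNA come from the fit without a block.

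Named genes were those past the threshold, the 10 higher and 10 lower with the smallest p at 5 CPM or more with libraries that do not overlap, 2 genes per list by smallest p, the 10 most abundant genes, the 6 with the smallest p among those that gained and among those that lost small RNA, hrde-1, prg-1, csr-1, sid-1 and gpr-1, and the 5 largest fold changes in each direction at 5 CPM or more. These genes and the 37 lists were chosen with earlier results of these data known, and the chemoreceptor pattern was corrected afterwards. Lists are described by counts and medians, with no set test. At these depths 3 counts, the limit that a count of 0 allows, are 0.153 to 0.311 CPM. This limit covers counting error only. The intervals of fold changes rest on the SE of the quasi-likelihood fit, so they also reflect the spread between these libraries.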

Additional observations from a re-analysis of the deposited data

How the results depend on the processing

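The count of 3 lower and 0 higher genes was 3 and 0 under RLE and upper-quartile scaling, without a filter, with at least 1 CPM in 3 libraries, in DESeq2, with the replicate block and, an alternative added after seeing the data, without N2_Star replicate 1. It was 0 with the 2 groups fitted alone and between 0 and 1 when 1 of the 6 libraries was left out. The 2 calls on gene lists, rnh-1.3 and C38D9.2, are among these 3 genes and moved with them (0, and 0 to 1), so they add no separate result. Deviations of same-numbered mRNA libraries correlated at 0.42, -0.01 and 0.53. MY16_Star replicate 2 correlated at 0.012, -0.006 and -0.010 with MY16 replicates 1, 2 and 3. By chi-square per degree of freedom, each MY16_Star library was nearest, of the MY16 libraries, to the same-numbered one, at 65.1, 20.8 and 11.1. MY16 replicate 1, however, was nearest to MY16_Star replicate 3, at 43.1. Whether the replicate numbers pair the mRNA libraries is thus not settled, and the main fit has no block. For the paired fit the block gave 3 calls in mRNA, 109 between N2_Star and N2, 1 in the difference between the comparisons and 188 in small RNA. It changed no other call of the named genes. At an unadjusted p under 0.05 the block with the 2 groups alone gave 189 higher and 1166 lower genes, and 14 lower of the 56 tested genes that gained small RNA against 9.28% of all. Between N2_Star and N2, the 21 calls became 233 without a filter, 364 in DESeq2 and 0 to 177 with a library left out, 177 being without N2_Star replicate 1. The difference between the comparisons gave 5 calls without a filter, 83 in DESeq2 and 0 to 8 with a library left out. Small RNA gave 522 without a filter, 273 in DESeq2 and 67 to 105 with a library left out. The median of genes that gained small RNA lay between -0.32 and -0.18 with a library left out. The cause of these moves was not tested. No named gene turned direction across a call. Scaling moved the median over all genes by less than 0.1 on the log2 scale. Genes under 1 CPM had a median SE of 0.649, which limits them to large differences.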
